A study of Mus musculus with 48 samples.

Results

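The enzymes that build fatty acids from sugar in the liver, and the enzymes that supply them with NADPH, were followed as a module of 31 genes in mouse liver. The members were the rows of the deposited table whose gene name matched a fixed list of 31 names, out of 49315 genes in the table. All 31 were measured at 1 TPM or more in at least 6 libraries and so entered the tests with 15820 genes. TPM is the share of all transcripts, corrected for gene length, so levels of different genes can be compared on it.

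Poly(A) RNA was sequenced from livers of C57BL/6J mice, an inbred strain, of both sexes. Mice were kept for 12 weeks on a high-fat diet (HFD) or a low-fat diet (LFD), with a weekly dose of a mixture or of vehicle alone. The mixture held 3 compounds that bind the aryl hydrocarbon receptor: TCDD at 10 ng/kg, the dibenzofuran PeCDF at 80 ng/kg and the biphenyl PCB126 at 140 ng/kg. The 8 groups, of 6 livers each, were HFD males given the mixture or vehicle, LFD males given the mixture or vehicle, HFD females given the mixture or vehicle, and LFD females given the mixture or vehicle. The sources used here give no ages and no batches. The p-values therefore cover only the spread among the libraries sequenced.

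De novo lipogenesis starts with citrate, which leaves the mitochondrion and is cut to acetyl-CoA. Acetyl-CoA carboxylase turns this into malonyl-CoA, fatty acid synthase joins the units to palmitate with NADPH as the reductant, and elongases and desaturases finish the chain. In liver the pathway is known to be driven after carbohydrate meals by the transcription factors SREBP-1 (gene Srebf1), ChREBP (gene Mlxipl) and the liver X receptor alpha (gene Nr1h3).

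Each library had 13180 to 14713 genes above or at 1 TPM, and no 2 libraries were duplicates, the highest correlation between 2 libraries being 0.984. The hepatocyte list, 8 genes such as Alb and Apoa1, was high in every library. Skeletal muscle transcripts exceeded a summed 1000 TPM over 15 muscle genes in 3 libraries. These were liver 6 of the mixture-treated HFD males at 21533 TPM, liver 3 of the mixture-treated LFD females at 1776 TPM and liver 3 of the vehicle LFD females at 8226 TPM. The second of these also held adrenal transcripts (1836 TPM over 6 genes) and the adipocyte gene Adipoq at 46.0 TPM. Below the 1000 TPM limit, livers 4 and 5 of the LFD vehicle males held 706 and 335 TPM of muscle transcripts, beside a group median of 22.6 TPM. Both were kept when the muscle-containing libraries were left out.

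Promoters of the members were searched for short known motifs. RefSeq promoters, 250 bases before to 50 bases after the start, were found for 27 of the 31 members on GRCm38.p6. Shown are those of Acss2, Acly and Fasn, lower on the HFD when averaged over sex and exposure, and of Taldo1, higher on the HFD. They run 5′ to 3′ on the gene's strand, with capitals marking the CCAAT box (CCAAT) and the dioxin response element core (GCGTG) in either orientation. They lie at chr2:155517793-155518092 on the plus strand, chr11:100527951-100528250 on the minus strand, chr11:120824498-120824797 on the minus strand and chr7:141391910-141392209 on the plus strand.
Acss2: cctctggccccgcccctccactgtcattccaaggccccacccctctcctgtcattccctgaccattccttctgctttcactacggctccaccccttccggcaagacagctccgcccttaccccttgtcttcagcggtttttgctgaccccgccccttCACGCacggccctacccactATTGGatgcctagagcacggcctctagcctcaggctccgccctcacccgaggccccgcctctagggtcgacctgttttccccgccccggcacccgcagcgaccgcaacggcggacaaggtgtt
Acly: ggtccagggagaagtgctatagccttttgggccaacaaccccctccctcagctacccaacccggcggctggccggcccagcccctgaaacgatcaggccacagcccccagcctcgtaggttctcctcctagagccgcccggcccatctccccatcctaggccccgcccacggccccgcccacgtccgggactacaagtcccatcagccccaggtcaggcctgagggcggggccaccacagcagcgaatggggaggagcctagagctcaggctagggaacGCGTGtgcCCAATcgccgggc
Fasn: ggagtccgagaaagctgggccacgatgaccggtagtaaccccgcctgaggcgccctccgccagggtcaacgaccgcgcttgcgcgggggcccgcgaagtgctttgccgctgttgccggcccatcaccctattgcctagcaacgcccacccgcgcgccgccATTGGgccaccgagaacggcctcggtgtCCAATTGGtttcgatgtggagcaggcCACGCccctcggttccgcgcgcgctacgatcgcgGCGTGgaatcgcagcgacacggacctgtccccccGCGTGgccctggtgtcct
Taldo1: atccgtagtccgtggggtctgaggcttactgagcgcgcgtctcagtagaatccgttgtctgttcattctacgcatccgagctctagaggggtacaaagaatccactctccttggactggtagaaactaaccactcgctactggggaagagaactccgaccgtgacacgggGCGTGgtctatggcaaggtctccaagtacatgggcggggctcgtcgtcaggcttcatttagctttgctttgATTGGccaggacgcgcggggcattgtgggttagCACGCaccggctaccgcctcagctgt
The Fasn window held 3 CCAAT boxes, of which 2 overlap each other, and 3 GCGTG cores. Over both strands, the CCAAT box was found in 51.4% of the 37 member promoters and in 37.4% of all 32851 promoters in the table. The GCGTG core was in 51.4% of the member promoters and 32.4% of all. The E-box CACGTG, bound by ChREBP with Mlx and by SREBP-1, was in 10.8% of member promoters and 7.2% of all, and differs from the GCGTG core in its letters. The sterol regulatory element core TCACNCCAC was in 2.7% of member promoters, that of Mlxipl, and 1.2% of all. The STAT motif TTCNNNGAA was in 0.0% of member promoters and 8.3% of all. These are matches of letters and show no binding.

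Levels spanned a wide range. Scd1, the desaturase that puts a double bond into saturated fatty acids, was the most abundant member in TPM, with group means between 9724 and 25069 TPM. Its paralog Scd2, chiefly a brain and adipose form, lay between 8.17 and 14.8 TPM, and the sources used here do not say how reads shared by the 2 paralogs were assigned. Group means differed most for Elovl3, 37.5-fold between its highest and lowest group, then for G6pdx at 12.9-fold and Acss2 at 6.46-fold. Idh1, the cytosolic isocitrate dehydrogenase, differed least, at 1.21-fold.

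**Figure D1:**
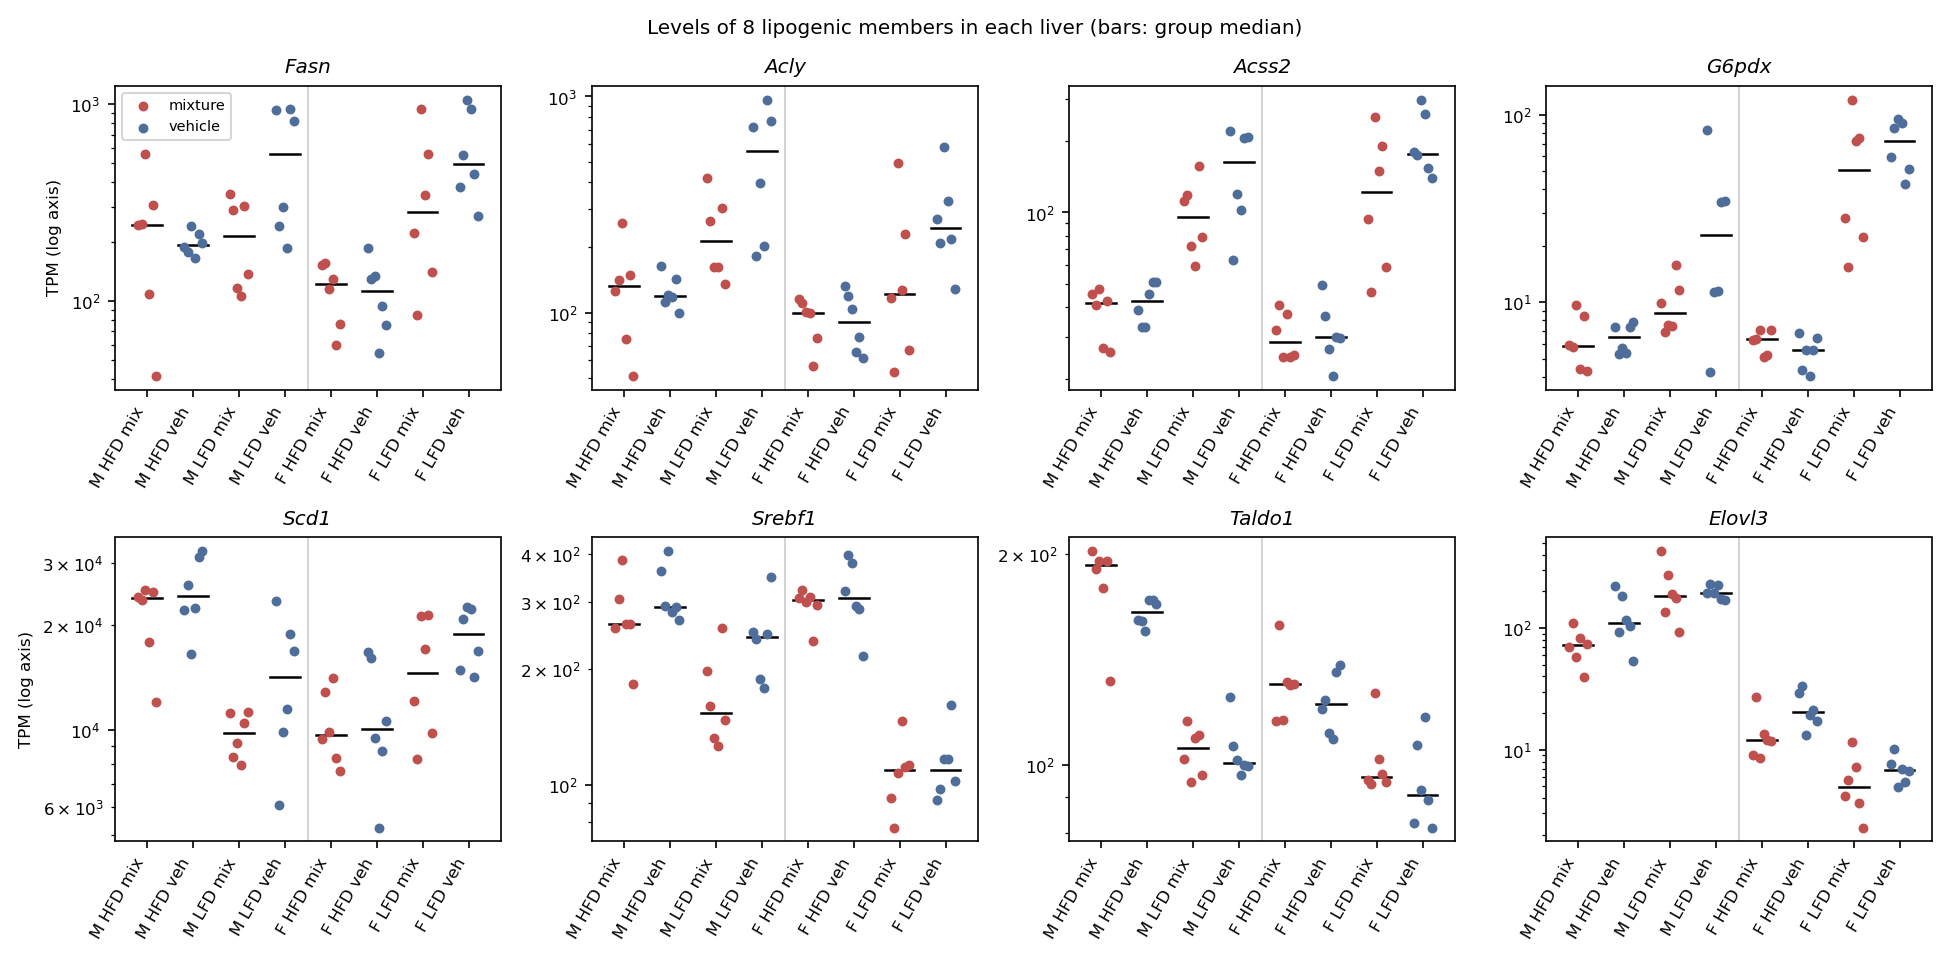
TPM on a log axis of 8 members in each of the 48 livers (points; bars are group medians), with M for male, F for female, mix for the mixture and veh for vehicle. Acss2 lies lower in each HFD group than in its LFD counterpart, Elovl3 splits by sex, and Srebf1 is lowest in the LFD females, with medians of 109.6 TPM given the mixture and 109.7 TPM given vehicle.

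HFD and LFD livers were compared within each sex and exposure. In vehicle females 3 of 4 acetyl-CoA supply genes and all 3 genes from acetyl-CoA carboxylase to palmitate fell on the HFD, while Srebf1 rose. In vehicle females 24 of 31 members passed an adjusted p of 0.05 in limma, 5 higher and 19 lower on the HFD, with 28.0% of all genes called (14.4% higher, 13.5% lower). In females given the mixture 12 passed, 4 higher and 8 lower, against 19.2% of all genes (11.5% higher, 7.74% lower). In vehicle males 12 passed, 4 higher and 8 lower, against 31.4% of all genes (25.6% higher, 5.82% lower). In males given the mixture 12 passed, 8 higher and 4 lower, against 38.6% of all genes (31.7% higher, 6.92% lower). Levels below are the lowest, median and highest of the 6 livers, and log2 changes are of log2(TPM + 1), HFD minus LFD, with SE and the adjusted p of limma over all 15820 genes.

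The median log2 change of the members was -0.27 in females given the mixture, -0.61 in vehicle females, 0.05 in males given the mixture and -0.26 in vehicle males. Without the muscle-containing libraries they were -0.13 in females given the mixture and 0.28 in males given the mixture. With trimmed-mean (TMM) scaling they were -0.16 in males given the mixture and -0.39 in vehicle males. The medians over all genes, in the order first given, were -0.001, -0.008, 0.148 and 0.114. In males the median of all genes was thus above 0 on the HFD. With TMM scaling, which removes this shift, the male calls became 4 higher and 9 lower with the mixture and 2 higher and 14 lower with vehicle. All genes then gave 2309 higher and 2707 lower of 15800 with the mixture, and 2207 higher and 1681 lower with vehicle. In bulk liver, fewer cells of a type and less RNA per cell cannot be told apart.

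In the acetyl-CoA step, Acss2, which makes acetyl-CoA from acetate, fell in all 4 comparisons. Acss2 (chromosome 2, 155517948 to 155585724, plus strand) had 24.9, 28.7 and 40.9 TPM in HFD females given the mixture and 46.4, 122 and 251 TPM in LFD females given it. Vehicle females had 20.6, 29.9 and 49.7 TPM on the HFD and 139, 176 and 297 TPM on the LFD. No HFD female reached the lowest LFD female of its exposure, and the log2 changes were -1.84 ± 0.30 (adjusted p = 1.49e-05) with the mixture and -2.59 ± 0.30 (adjusted p = 1.07e-08) with vehicle. Males given the mixture had 25.9, 41.7 and 47.9 TPM on the HFD and 59.6, 95.5 and 157 TPM on the LFD, and vehicle males 33.1, 42.4 and 51.3 TPM on the HFD and 63.4, 162 and 220.4 TPM on the LFD. The male groups did not overlap either, with changes of -1.32 ± 0.30 (adjusted p = 0.000537) and -1.72 ± 0.30 (adjusted p = 1.86e-05). Acss2 shares exon bases with Acss2os, Ggt7 and Gss on the other strand, and the sources used here give no strand setting, so reads of such pairs cannot be told apart.

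Acly, the ATP citrate lyase that cuts citrate to acetyl-CoA (chromosome 11, 100476353 to 100528000, minus strand), fell in both sexes given vehicle. Vehicle females had 61.3, 90.3 and 133 TPM on the HFD and 128, 246 and 581 TPM on the LFD, with 1 LFD liver inside the HFD range. Vehicle males had 99.8, 119 and 165 TPM on the HFD and 183, 561 and 965 TPM on the LFD, with no overlap. The changes were -1.53 ± 0.42 (adjusted p = 0.0044) in females and -1.83 ± 0.42 (adjusted p = 0.000605) in males. With the mixture, Acly had 56.4, 99.7 and 115 TPM in HFD females and 52.8, 122 and 495 TPM in LFD females, a change of -0.57 ± 0.42 (adjusted p = 0.368). Males given the mixture had 50.8, 133 and 261 TPM on the HFD and 136, 213 and 419 TPM on the LFD, a change of -0.91 ± 0.42 (adjusted p = 0.0785), which passed with TMM scaling, at -1.13, and when replicate number was a block. Slc25a1, the mitochondrial citrate carrier, passed in vehicle females, at -0.29 ± 0.11 (adjusted p = 0.0404), a call lost without the filter on low values, and in both male comparisons with TMM scaling. Aacs, the acetoacetyl-CoA synthetase, passed in no diet comparison.

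The carboxylases and the synthase fell in females. Acaca, the cytosolic acetyl-CoA carboxylase, had 11.1, 15.7 and 24.8 TPM in HFD vehicle females and 48.4, 80.5 and 152 TPM in LFD vehicle females, a change of -2.29 ± 0.37 (adjusted p = 6.73e-06). Acacb, the form at the mitochondrial membrane, had 22.6, 42.1 and 59.4 TPM on the HFD and 84.1, 115 and 164 TPM on the LFD, a change of -1.54 ± 0.25 (adjusted p = 6.96e-06). Neither gene overlapped between the diets in vehicle females. In females given the mixture the changes were -1.34 ± 0.37 (adjusted p = 0.00791) for Acaca and -0.91 ± 0.25 (adjusted p = 0.00727) for Acacb. In vehicle males they were -0.96 ± 0.37 (adjusted p = 0.0439) and -0.93 ± 0.25 (adjusted p = 0.00334), and that of Acaca was lost with no filter on low values and when only the compared groups were fitted. In males given the mixture neither passed, at -0.15 and -0.14.

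Fasn, fatty acid synthase (chromosome 11, 120805846 to 120824547, minus strand), had 54.4, 112 and 186 TPM in HFD vehicle females and 269, 497 and 1051 TPM in LFD vehicle females. The groups did not overlap and the change was -2.37 ± 0.50 (adjusted p = 0.000306). With the mixture, HFD females had 59.5, 122 and 156 TPM and LFD females 85.0, 284 and 943 TPM, overlapping, with a change of -1.36 ± 0.50 (adjusted p = 0.0476). That call was lost with no filter on low values, when only the compared groups were fitted, and without the muscle-containing libraries, where the change was -1.01 (adjusted p = 0.110). Vehicle males had 165, 191 and 242 TPM on the HFD and 185, 561 and 944 TPM on the LFD, and the change of -1.23 ± 0.50 (adjusted p = 0.054) missed the threshold. It passed with TMM scaling, at -1.37, when only the compared groups were fitted, when replicate number was a block, and without the muscle-containing libraries. Leaving those libraries out removed no vehicle male, so it moved only the spread shared by the groups and the adjustment. Males given the mixture had 41.6, 244 and 560.1 TPM on the HFD and 106, 214 and 349 TPM on the LFD. Their change of -0.03 ± 0.50 (adjusted p = 0.974) turned to 0.40 (adjusted p = 0.518) without the muscle-containing libraries, among them liver 6, the lowest of the HFD group.

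Among the 9 desaturases and elongases, vehicle females had 1 higher and 6 lower on the HFD and males given the mixture had 4 higher and 3 lower. Elovl2, which elongates polyunsaturated fatty acids, fell in all 4 comparisons, with changes of -1.09 and -1.12 in females and -0.73 and -0.69 in males (SE 0.16 each), with mixture first in each pair. In vehicle females it had 215, 314 and 357 TPM on the HFD and 426, 665 and 855 TPM on the LFD, and in vehicle males 306, 341 and 369 TPM on the HFD and 416, 560.3 and 645 TPM on the LFD. In none of the 4 comparisons did the diets overlap. Elovl6, which lengthens palmitate to stearate, fell in vehicle females, at -2.11 ± 0.44 (adjusted p = 0.000303), and had -1.05, 0.26 and -0.50 in females given the mixture, males given the mixture and vehicle males, none past the threshold. Fads1, a desaturase of polyunsaturated fatty acids, had 434, 484 and 578 TPM in HFD females given the mixture and 636, 805 and 976 TPM in LFD females given it, without overlap, a change of -0.67 ± 0.17 (adjusted p = 0.0036). Fads1 also fell in males given the mixture. That call was lost with no filter on low values, when only the compared groups were fitted, and without the muscle-containing libraries. In vehicle males Fads1 passed, as lower, only with TMM scaling and without the muscle-containing libraries, none of which was a vehicle male. Fads2, the partner desaturase, passed in vehicle females, where it fell, at -0.61 ± 0.17 (adjusted p = 0.00651).

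Scd1 (chromosome 19, 44394455 to 44407879, minus strand) went the other way in males. Males given the mixture had 11999, 23789 and 25181 TPM on the HFD and 7908, 9815 and 11248 TPM on the LFD, without overlap, a change of 1.09 ± 0.27 (adjusted p = 0.000964). Vehicle males had 16471, 24119 and 32438 TPM on the HFD and 6104, 14159.9 and 23392 TPM on the LFD, a change of 0.90 ± 0.27 (adjusted p = 0.00775). In vehicle females Scd1 fell, with 5249, 10044 and 16715 TPM on the HFD and 14115, 18785 and 22528 TPM on the LFD, a change of -0.82 ± 0.27 (adjusted p = 0.0176). Females given the mixture had 7617, 9658 and 14099.6 TPM on the HFD and 8251, 14562 and 21245 TPM on the LFD, a change of -0.47 ± 0.27 (adjusted p = 0.231). Elovl5, another elongase of polyunsaturated fatty acids, rose in males by 0.83 with the mixture and 0.71 with vehicle (adjusted p = 0.0125 and 0.0406), and both calls were lost with TMM scaling. Scd2 rose in males given the mixture by 0.77 ± 0.24 (adjusted p = 0.00933). Elovl1, an elongase of very long chains, rose in males given the mixture by 0.29 ± 0.12 (adjusted p = 0.0484), a call lost with TMM scaling, and fell in vehicle females, at -0.47 ± 0.12 (adjusted p = 0.00227).

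Of the NADPH genes, G6pdx fell in 3 of the 4 comparisons and Taldo1 rose in all 4. G6pdx, whose enzyme makes the first NADPH of the pathway (chromosome X, 74409483 to 74429194, minus strand), had 5.12, 6.33 and 7.11 TPM in HFD females given the mixture and 15.4, 50.3 and 119.8 TPM in LFD females given it. Vehicle females had 4.03, 5.56 and 6.81 TPM on the HFD and 42.8, 71.9 and 94.2 TPM on the LFD. Diets did not overlap in either, and the changes were -2.63 ± 0.40 (adjusted p = 3.35e-06) and -3.42 ± 0.40 (adjusted p = 9.22e-09). In vehicle males it had 5.30, 6.52 and 7.85 TPM on the HFD and 4.25, 22.8 and 83.2 TPM on the LFD, overlapping, a change of -1.50 ± 0.40 (adjusted p = 0.00302). Males given the mixture, with 4.27, 5.83 and 9.69 TPM on the HFD and 6.90, 8.73 and 15.7 TPM on the LFD, did not pass, at -0.55 ± 0.40 (adjusted p = 0.293). G6pdx shares exon bases with Ikbkg on the other strand.

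Taldo1, transaldolase of the non-oxidative branch (chromosome 7, 141392199 to 141402968, plus strand), rose in all 4 comparisons. Males given the mixture had 132, 193 and 202 TPM on the HFD and 94.7, 106 and 116 TPM on the LFD, and vehicle males 155, 165 and 172 TPM on the HFD and 96.8, 101 and 125 TPM on the LFD. The male diets did not overlap, with changes of 0.78 ± 0.09 (adjusted p = 5.18e-09) and 0.65 ± 0.09 (adjusted p = 2.96e-07). The female changes, 0.36 ± 0.09 (adjusted p = 0.00386) with the mixture and 0.38 ± 0.09 (adjusted p = 0.00142) with vehicle, came from groups that overlapped. Tkt, the transketolase of that branch, rose in males, by 0.52 with the mixture and 0.46 with vehicle (adjusted p = 0.00887 and 0.026), and lost both calls with TMM scaling. Pgd, which makes the next NADPH after G6pdx, and Me1, the malic enzyme, fell in vehicle females, at -0.82 ± 0.26 (adjusted p = 0.0135) and -1.34 ± 0.32 (adjusted p = 0.00136). Neither passed in the other 3 comparisons, where Pgd had -0.27, 0.47 and -0.07 and Me1 -0.64, 0.15 and -0.04 in females given the mixture, males given the mixture and vehicle males. Without the muscle-containing libraries, Pgd passed in males given the mixture, as 1 of 9 members higher on the HFD there, where 5028 of 15677 genes were higher. Idh1 passed in none of the 4.

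Srebf1 (chromosome 11, 60199089 to 60222581, minus strand) rose in both female comparisons, where Fasn, Acaca and Acacb fell, and in males given the mixture, where these 3 did not pass and Scd1 rose. HFD females given the mixture had 236, 304 and 322 TPM and LFD females given it 77.5, 109.6 and 146 TPM, while vehicle females had 217, 306 and 397 TPM on the HFD and 91.4, 109.7 and 162 TPM on the LFD. Every HFD female exceeded every LFD female of its exposure, with changes of 1.46 ± 0.17 (adjusted p = 1.95e-08) and 1.45 ± 0.17 (adjusted p = 1.22e-08). In males given the mixture Srebf1 had 183, 263 and 385 TPM on the HFD and 126, 154 and 256 TPM on the LFD, a change of 0.70 ± 0.17 (adjusted p = 0.000982). Vehicle males, with 268, 292 and 406 TPM on the HFD and 178, 243 and 347 TPM on the LFD, missed the threshold at 0.41 ± 0.17 (adjusted p = 0.065). The value is for the gene, so the SREBP-1a and SREBP-1c transcripts are not separated, and Srebf1 shares exon bases with Rai1 and Mir6922.

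Of the other regulators, Mid1ip1, a small activator of acetyl-CoA carboxylase, rose in females by 0.62 with the mixture and 0.54 with vehicle (adjusted p = 0.019 and 0.0332), the second lost with no filter on low values. Mlxipl rose in vehicle females by 0.33 ± 0.12 (adjusted p = 0.0332), a call lost with no filter on low values, when only the compared groups were fitted, and without the muscle-containing libraries. Its partner Mlx rose in males given the mixture by 0.22 ± 0.07 (adjusted p = 0.0158), a call lost with TMM scaling, where the change was 0.01, and fell in vehicle females, at -0.24 ± 0.07 (adjusted p = 0.0119). Nr1h3 and Thrsp, the thyroid hormone responsive gene of lipogenic tissues, passed in none of the 4. With TMM scaling Mlxipl passed as lower on the HFD in both male comparisons, Mid1ip1 in vehicle males and Nr1h3 in males given the mixture. Without the muscle-containing libraries Mlxipl passed as higher in females given the mixture. Pklr, the liver pyruvate kinase that feeds the pathway from glycolysis, fell with vehicle in both sexes, at -0.81 in females and -0.92 in males (adjusted p = 0.0129 and 0.00412). It also passed as lower in males given the mixture with TMM scaling. Pnpla3, a lipase and acyltransferase of lipid droplets, also fell with vehicle in both sexes, at -1.33 in females and -1.61 in males (adjusted p = 0.0384 and 0.00979). Its levels were low, 2.34, 4.80 and 11.0 TPM in HFD and 7.57, 12.9 and 23.4 TPM in LFD vehicle females, and the female call was lost with no filter on low values. Acsl5, which activates fatty acids to acyl-CoA, fell in females, at -0.68 with the mixture and -0.88 with vehicle (adjusted p = 0.00426 and 0.000139).

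**Figure D2:**
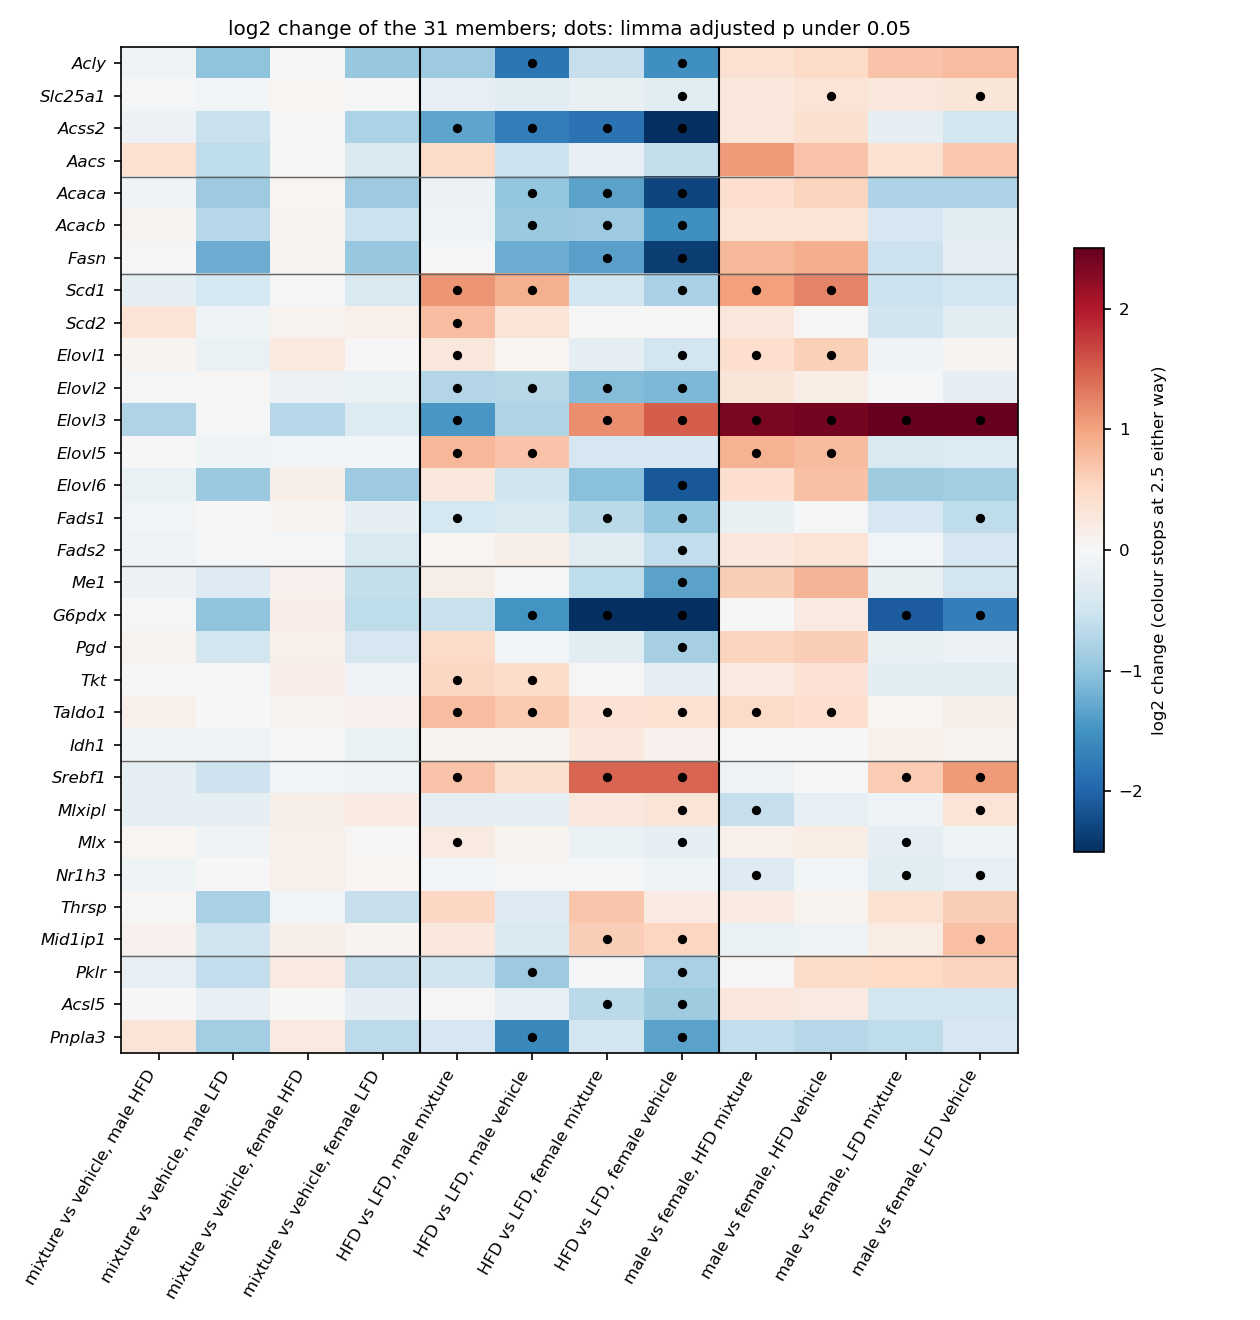
Log2 change of log2(TPM + 1) for the 31 members (rows, by role) in 12 comparisons (columns), red for higher and blue for lower in the group named first, with dots where limma's adjusted p was under 0.05. The 4 columns of the mixture hold no dot, the vehicle female diet column holds 24, and Elovl3 is dark red in all 4 columns of sex.

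Other lists of the pathway were read beside these. In SREBP2 cholesterol synthesis, 11 of 18 genes fell in females given the mixture, 14 in vehicle females, 14 in males given the mixture (1 rose) and 15 in vehicle males, with medians of -0.74, -1.42, -1.09 and -1.53. Sqle, squalene epoxidase, changed by -2.42 in females given the mixture, -3.09 in vehicle females, -2.34 in males given the mixture and -3.47 in vehicle males (SE 0.37 each). Of 12 SREBP processing genes and regulators, Scap, the escort protein of SREBP, fell in all 4, at -0.33 in females given the mixture, -0.64 in vehicle females, -0.88 in males given the mixture and -0.998 in vehicle males (SE 0.11 each). Insig2, which holds that escort back in the endoplasmic reticulum, fell in females, at -0.73 with the mixture and -0.62 with vehicle, and rose in males by 1.05 with the mixture and 1.22 with vehicle (SE 0.22 each). Mogat1 of triglyceride synthesis, known as a fatty liver gene, rose by 1.70 and 2.95 with the mixture and 2.02 and 3.26 with vehicle, females before males (SE 0.28 each). Over the 12 genes of sugar uptake and glycolysis, 1 rose and 2 fell in each female comparison, 5 rose and 2 fell in males given the mixture and 2 rose and 2 fell in vehicle males. With TMM scaling the male splits were 2 higher and 3 lower with the mixture and 1 higher and 3 lower with vehicle. Of all genes, without that scaling, 11.5% rose and 7.74% fell in females given the mixture, and 14.4% and 13.5% in vehicle females. In males 31.7% rose and 6.92% fell with the mixture, and 25.6% and 5.82% with vehicle.

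Cell markers moved with diet as well. The 8 hepatocyte genes summed to medians of 88796 and 86552 TPM in HFD females given the mixture and vehicle, and 125028 and 135674 TPM in the LFD females. In males the medians were 75154 and 76439 TPM on the HFD and 104106 and 113515 TPM on the LFD. The 8 adipocyte genes summed to 222 to 382 TPM in HFD males given the mixture and 158 to 478 TPM in HFD vehicle males, against 22.2 to 38.9 and 20.6 to 48.3 TPM in the LFD males. In females the ranges were 23.3 to 90.9 and 35.0 to 74.8 TPM on the HFD and 25.7 to 358 and 15.7 to 32.4 TPM on the LFD. The 358 TPM belonged to liver 3, which also held muscle and adrenal transcripts, beside a group median of 26.5 TPM. In the HFD males most of the sum was Cidec, a lipid droplet gene that fatty hepatocytes also express, with medians of 245 TPM given the mixture and 162 TPM given vehicle. The defining markers Adipoq and Plin1 had medians of 0.165 and 0.056 TPM with the mixture and 0 and 0.013 TPM with vehicle in those livers. The 8 stellate cell genes summed to 315 to 785 TPM in HFD males given the mixture and 265 to 336 TPM in HFD vehicle males, against 133 to 186 and 153 to 197 TPM in the LFD males. The 785 TPM belonged to liver 6, which held the most muscle transcripts, and the next highest liver of that group had 620 TPM. In females the stellate medians were 243 and 237 TPM on the HFD and 237 and 244 TPM on the LFD, mixture before vehicle. The 6 cholangiocyte genes had medians of 248 TPM in HFD males given the mixture and 111 TPM in HFD vehicle males, against 62.8 and 71.9 TPM in the LFD males. In females these medians were 113 and 109 TPM on the HFD and 64.6 and 72.3 TPM on the LFD. None of the stellate or cholangiocyte genes had a median of 0 in any group. The part of these cell types in the diet results was not tested.

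Averaged over the 4 strata, 20 members passed, 6 higher and 14 lower, against 50.5% of all genes (35.0% higher, 15.5% lower). With TMM scaling the split was 2 higher and 18 lower, where all genes gave 3933 higher and 3902 lower of 15800. On that average Fasn changed by -1.25 ± 0.25 (adjusted p = 4.42e-05), Acly by -1.21 ± 0.21 (adjusted p = 3.83e-06), Srebf1 by 1.00 ± 0.09 (adjusted p = 2.19e-13) and Scd1 by 0.18 ± 0.13 (adjusted p = 0.278). All 3 genes from acetyl-CoA carboxylase to palmitate fell on it.

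The diet response of males was then set against that of females, as the male minus the female log2 change. With the mixture 10 members differed, 7 positive and 3 negative, against 17.0% of all genes (13.4% positive, 3.65% negative). With vehicle 13 differed, 9 positive and 4 negative, against 18.2% of all genes (14.8% positive, 3.47% negative). Male changes carried the upward shift over all genes, and the all-gene median difference was 0.149 with the mixture and 0.121 with vehicle. With TMM scaling 6 members differed in each, 2 positive and 4 negative. All genes then gave 800 positive and 1272 negative of 15800 with the mixture, and 1190 positive and 907 negative with vehicle.

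Elovl3, an elongase of very long chains with a known male bias in mouse liver, differed most. It rose on the HFD in females, with 8.49, 12.0 and 27.3 TPM on the HFD and 2.30, 4.91 and 11.6 TPM on the LFD given the mixture, and 13.3, 20.3 and 33.3 TPM on the HFD and 4.93, 6.83 and 10.1 TPM on the LFD given vehicle. The female changes were 1.16 ± 0.31 (adjusted p = 0.00596) and 1.52 ± 0.31 (adjusted p = 0.000212). In males given the mixture it fell, with 39.9, 72.0 and 109 TPM on the HFD and 92.0, 183 and 427 TPM on the LFD, a change of -1.46 ± 0.31 (adjusted p = 0.00022). Vehicle males had 53.6, 109.7 and 223 TPM on the HFD and 171, 194 and 229.7 TPM on the LFD, a change of -0.75 ± 0.31 (adjusted p = 0.0594). The differences between the sexes were -2.61 ± 0.44 (adjusted p = 4.58e-05) with the mixture and -2.27 ± 0.44 (adjusted p = 0.000274) with vehicle, and both held with TMM scaling. Elovl3 shares exon bases with Pitx3 on the other strand.

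Scd1 differed by 1.56 ± 0.38 (adjusted p = 0.00284) with the mixture and 1.71 ± 0.38 (adjusted p = 0.00113) with vehicle. It rose in males and had lower median levels on the HFD in females. G6pdx differed by 2.08 ± 0.56 (adjusted p = 0.00778) and 1.92 ± 0.56 (adjusted p = 0.0133), its female decline being the larger. Srebf1 differed by -0.76 ± 0.24 (adjusted p = 0.0251) and -1.04 ± 0.24 (adjusted p = 0.00189), its female rise being the larger, although the first was lost with no filter on low values and without the muscle-containing libraries. Mlxipl differed by -0.47 ± 0.17 (adjusted p = 0.0426) and -0.55 ± 0.17 (adjusted p = 0.0179), the first lost with no filter and when only the compared groups were fitted. These 4 and Elovl3 held with TMM scaling in both exposures, and so did Mid1ip1 with vehicle, at -0.89 ± 0.27 (adjusted p = 0.0184). Elovl1, Elovl5, Mlx and Acsl5 passed in both exposures but in neither with TMM scaling, and Fads2, Me1 and Tkt with vehicle and Taldo1 with the mixture were likewise lost. Fasn did not pass, at 1.33 ± 0.70 (adjusted p = 0.194) with the mixture and 1.13 ± 0.70 (adjusted p = 0.287) with vehicle, and neither did Acly, at -0.34 ± 0.59 (adjusted p = 0.741) and -0.30 ± 0.59 (adjusted p = 0.79).

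**Figure D3:**
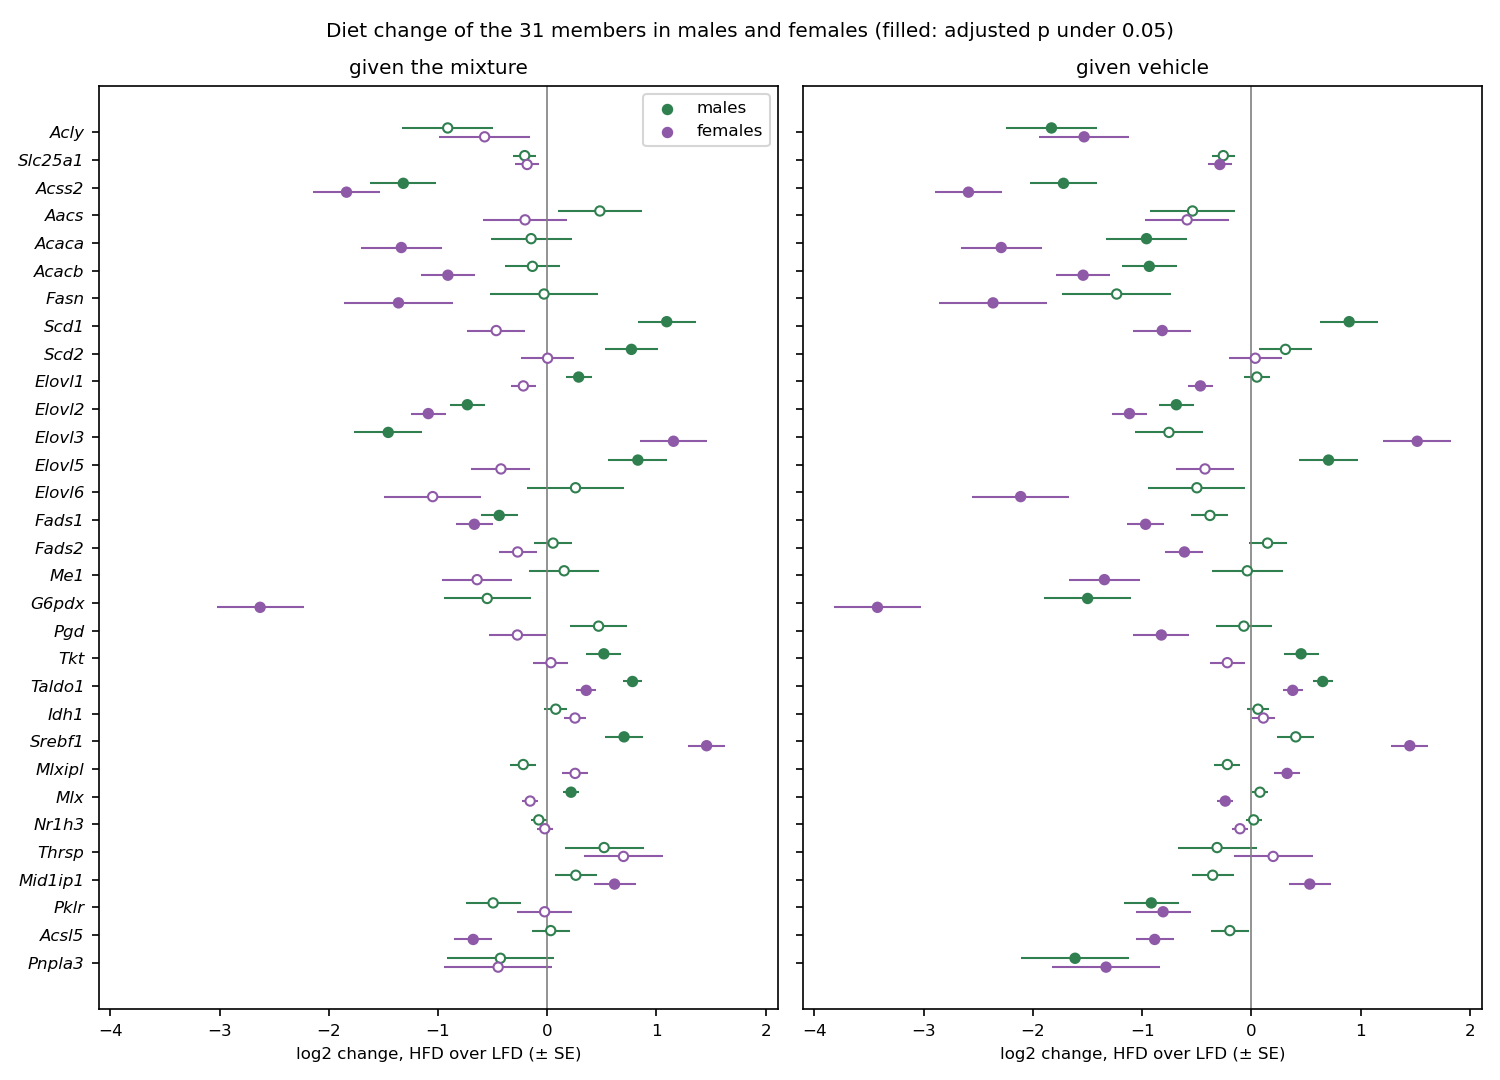
Log2 change, HFD over LFD, of each member (± SE) in males (green) and females (purple), for mice given the mixture (left) and vehicle (right), with filled points where the adjusted p was under 0.05. Elovl3 and Scd1 lie on opposite sides of 0 in the 2 sexes, and the female points of G6pdx (-2.63 and -3.42) lie farthest left.

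Male and female livers were compared within each diet and exposure. Elovl3 was the one member that passed in all 4 comparisons, higher in males each time and without overlap in any. On the HFD it averaged 72.3 ± 23.4 TPM in males and 13.7 ± 6.94 TPM in females given the mixture, and 129 ± 62.5 TPM in males and 22.3 ± 7.57 TPM in females given vehicle (SD, n = 6 each). On the LFD it averaged 216 ± 120.1 TPM in males and 5.76 ± 3.33 TPM in females given the mixture, and 198 ± 25.4 TPM in males and 6.95 ± 1.85 TPM in females given vehicle (SD, n = 6 each). The log2 differences, male minus female, were 2.35 ± 0.31 (adjusted p = 2e-07) and 2.39 ± 0.31 (adjusted p = 1.77e-07) on the HFD, and 4.97 ± 0.31 (adjusted p = 4.11e-17) and 4.67 ± 0.31 (adjusted p = 3e-16) on the LFD, mixture before vehicle.

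On the HFD, 7 members passed with the mixture, 5 higher and 2 lower in males, against 15.3% of all genes (9.73% higher, 5.56% lower), and 6 passed with vehicle, all higher in males, against 11.8% (8.26% higher, 3.53% lower). Scd1 was higher in males by 1.02 ± 0.27 (adjusted p = 0.00519) with the mixture and 1.24 ± 0.27 (adjusted p = 0.00103) with vehicle. Taldo1 was higher by 0.47 ± 0.09 (adjusted p = 0.000174) and 0.42 ± 0.09 (adjusted p = 0.00108), Elovl1 by 0.41 ± 0.12 (adjusted p = 0.0116) and 0.59 ± 0.12 (adjusted p = 0.000441), and Elovl5 by 0.87 ± 0.27 (adjusted p = 0.0215) and 0.79 ± 0.27 (adjusted p = 0.0458), both lost with the mixture when only the compared groups were fitted. With vehicle, the Elovl5 call was lost in that fit too. Slc25a1 was higher with vehicle by 0.33 ± 0.11 (adjusted p = 0.0353). It and Elovl5 with vehicle were lost with no filter on low values. Mlxipl and Nr1h3 were lower in males given the mixture, at -0.58 ± 0.12 (adjusted p = 0.000332) and -0.32 ± 0.07 (adjusted p = 0.00159). The counts were 15 with the mixture without the muscle-containing libraries and 12 with vehicle when only the compared groups were fitted, and Fasn was among the added calls in both. All genes called there were 2664 of 15677 and 1710 of 15820. Fasn had 0.80 and 0.91, Acly 0.38 and 0.48, and Srebf1 -0.12 and 0.02, none past the threshold in the fit of all groups.

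On the LFD, 5 members passed with the mixture, 2 higher and 3 lower in males, against 21.5% of all genes (4.92% higher, 16.6% lower), and 8 passed with vehicle, 5 higher and 3 lower, against 23.7% (6.61% higher, 17.1% lower). With TMM scaling the splits were 5 higher and 1 lower, and 7 higher and 2 lower. All genes then gave 1628 higher and 1149 lower of 15800 with the mixture, and 1696 higher and 1676 lower with vehicle. The all-gene medians without that scaling were -0.110 and -0.086. Srebf1 was higher in males, by 0.63 ± 0.17 (adjusted p = 0.00582) with the mixture and 1.06 ± 0.17 (adjusted p = 5.54e-06) with vehicle. It had 126, 154 and 256 TPM in males and 77.5, 109.6 and 146 TPM in females given the mixture, which overlapped, and 178, 243 and 347 TPM in males and 91.4, 109.7 and 162 TPM in females given vehicle, which did not. G6pdx was lower in males, at -2.08 ± 0.40 (adjusted p = 0.00012) and -1.71 ± 0.40 (adjusted p = 0.00114). One LFD vehicle male had 83.2 TPM of G6pdx, within the female range of 42.8 to 94.2 TPM, and another had 4.25 TPM.

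With vehicle on the LFD, Mid1ip1 was higher in males by 0.76 ± 0.19 (adjusted p = 0.00268) and Fads1 lower, at -0.64 ± 0.17 (adjusted p = 0.00409). Mlxipl at 0.34 ± 0.12 (adjusted p = 0.0284) and Slc25a1 at 0.30 ± 0.11 (adjusted p = 0.036) passed but were lost with no filter on low values. Nr1h3, lower in males at -0.26 with the mixture and -0.20 with vehicle (adjusted p = 0.00746 and 0.0388), and Mlx, lower with the mixture at -0.25 ± 0.07 (adjusted p = 0.0116), were lost with TMM scaling. Fasn, Acly and Scd1 did not pass on the LFD, at -0.53, 0.72 and -0.54 with the mixture and -0.22, 0.78 and -0.47 with vehicle. In the fasting response list, 5 of 10 genes were lower in males with the mixture and 9 of 10 with vehicle, or 4 and 6 with TMM scaling. Of all genes 16.6% and 17.1% were lower, or 1149 and 1676 of 15800 with TMM scaling. On the HFD 2 of the 10 were higher in males with the mixture, or 0 with TMM scaling, and 0 passed with vehicle. Vnn1 was lower on the LFD, at -1.77 with the mixture and -2.04 with vehicle (SE 0.26 each). Averaged over the 4 strata, 11 members passed between the sexes, 8 higher and 3 lower in males, against 31.2% of all genes (12.2% higher, 19.0% lower).

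The mixture was compared with vehicle in each sex and diet. No member passed an adjusted p of 0.05 in limma in any of the 4, nor on their average. The share of all genes called was 0.0948% in HFD males (0.0695% higher, 0.0253% lower), 0.0379% in LFD males, 0.0126% in HFD females and 0.0379% in LFD females, and 0.0948% on the average. At an unadjusted p under 0.05 there were 2, 11, 2 and 7 members, and 10 on the average, where all genes gave 1486, 830, 670, 1503 and 1850 of 15820. On the average the smallest p belonged to Elovl3 at -0.46 ± 0.16 (adjusted p = 0.25), Srebf1 at -0.22 ± 0.09 (adjusted p = 0.309) and Acss2 at -0.38 ± 0.15 (adjusted p = 0.318). On the LFD most members had negative changes, 29 of 31 in males with a median of -0.33 and 25 of 31 in females with a median of -0.34, beside all-gene medians of -0.004 and 0.017. On the HFD 18 of 31 were negative in males, with a median of -0.04, and 10 of 31 in females, with a median of 0.06. The male tally turned to 7 of 31 negative with a median of 0.12 without the muscle-containing libraries, and was 23 of 31 negative with a median of -0.11 with TMM scaling. Without those libraries the counts at an unadjusted p under 0.05 were 4 in HFD males and 12 in LFD females. All genes gave 1645 and 1590 of 15677 there. Members vary together between livers, so these counts are not of independent genes.

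Fasn had 106, 214 and 349 TPM in LFD males given the mixture and 185, 561 and 944 TPM in LFD males given vehicle. The groups overlapped, the change was -1.25 ± 0.50 (adjusted p = 0.846) and its 95% interval was -2.25 to -0.24. Acly had 136, 213 and 419 TPM with the mixture and 183, 561 and 965 TPM with vehicle, a change of -1.004 ± 0.42 (adjusted p = 0.894) with an interval of -1.84 to -0.17. The 3 members with the smallest p in LFD males were Srebf1 at -0.51 ± 0.17 (adjusted p = 0.754), Acacb at -0.71 ± 0.25 (adjusted p = 0.798) and Mid1ip1 at -0.51 ± 0.19 (adjusted p = 0.834). Srebf1 had 126, 154 and 256 TPM with the mixture and 178, 243 and 347 TPM with vehicle. Scd1 had 7908, 9815 and 11248 TPM with the mixture and 6104, 14159.9 and 23392 TPM with vehicle, a change of -0.45 ± 0.27 (adjusted p = 1).

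In LFD females the smallest p belonged to Acss2 at -0.79 ± 0.30 (adjusted p = 0.401), Acaca at -0.91 ± 0.37 (adjusted p = 0.443) and Acly at -0.94 ± 0.42 (adjusted p = 0.482). Acss2 had 46.4, 122 and 251 TPM with the mixture and 139, 176 and 297 TPM with vehicle, and Acaca 15.8, 40.9 and 124 TPM with the mixture and 48.4, 80.5 and 152 TPM with vehicle. Both overlapped. Fasn had 85.0, 284 and 943 TPM with the mixture and 269, 497 and 1051 TPM with vehicle, a change of -0.94 ± 0.50 (adjusted p = 0.557) with an interval of -1.94 to 0.06. For Scd1 and Srebf1 the changes were -0.38 ± 0.27 (adjusted p = 0.66) and -0.08 ± 0.17 (adjusted p = 0.905).

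In HFD males the smallest p belonged to Elovl3 at -0.74 ± 0.31 (adjusted p = 0.448), Mlxipl at -0.24 ± 0.12 (adjusted p = 0.528) and Nr1h3 at -0.12 ± 0.07 (adjusted p = 0.655). Elovl3 had 39.9, 72.0 and 109 TPM with the mixture and 53.6, 109.7 and 223 TPM with vehicle. In HFD females it was again Elovl3, at -0.70 ± 0.31 (adjusted p = 1), then Elovl1 at 0.24 ± 0.12 (adjusted p = 1) and Nr1h3 at 0.13 ± 0.07 (adjusted p = 1). Elovl1 had 23.5, 25.4 and 26.9 TPM with the mixture and 17.4, 22.1 and 23.4 TPM with vehicle, without overlap. Fasn changed by -0.04 ± 0.50 in HFD males, with an interval of -1.05 to 0.96, and by 0.06 ± 0.50 in HFD females, with an interval of -0.94 to 1.06. The male value turned to 0.39 without the muscle-containing libraries, among them liver 6 of the mixture group, and that of Acly, -0.09, to 0.15. Scd1 changed by -0.25 in HFD males and -0.03 in HFD females, and Srebf1 by -0.22 and -0.08.

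**Figure D4:**
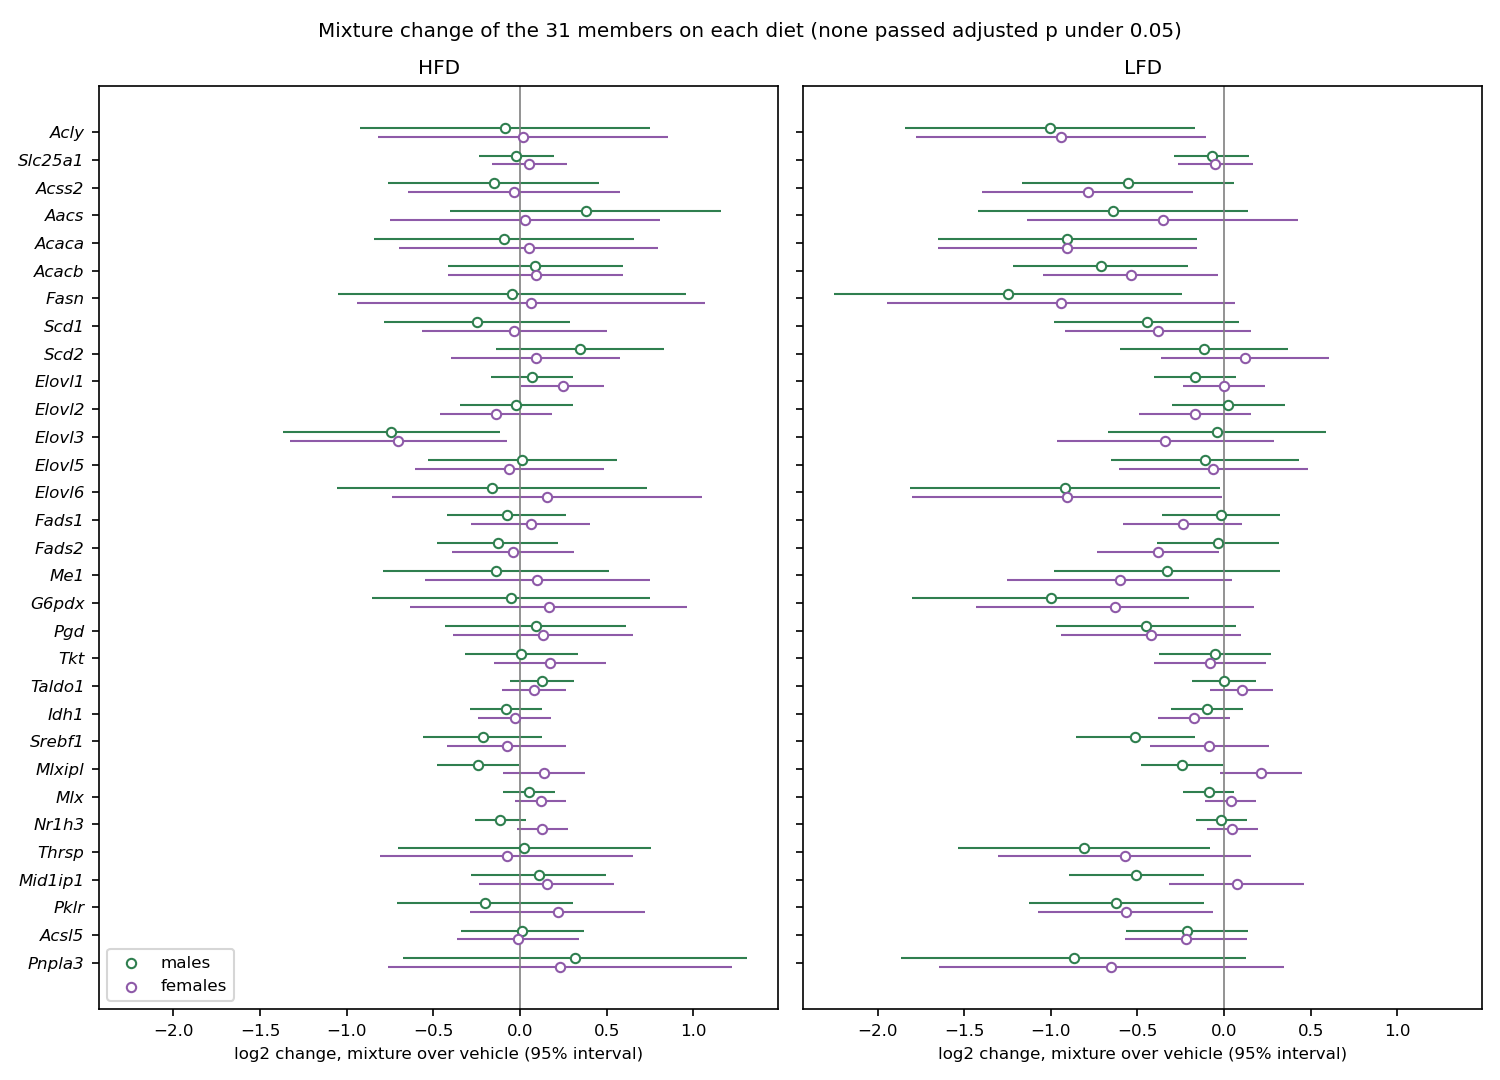
Log2 change of each member with the mixture over vehicle, with its 95% interval, in males (green) and females (purple) on the HFD (left) and the LFD (right). Most LFD points lie left of 0, such as Fasn at -1.25 in males and -0.94 in females, while HFD points scatter about 0, and no member passed the adjusted threshold.

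Whether the mixture effect differed between diets was tested as the HFD change minus the LFD change. No member passed in limma, against 0.00632% of all genes called in each sex. At an unadjusted p under 0.05 there were 2 members in males and 1 in females, where all genes gave 1158 and 734 of 15820. The member medians were 0.24 in males and 0.30 in females. Without the muscle-containing libraries there were 12 members in males and 8 in females at an unadjusted p under 0.05, with medians of 0.40 and 0.34. All genes gave 1451 and 918 of 15677 there, and still no member passed the adjusted threshold. Fasn differed by 1.203 ± 0.70 (adjusted p = 0.737) in males, with a 95% interval of -0.22 to 2.62, and by 1.00 ± 0.70 (adjusted p = 1) in females, with an interval of -0.42 to 2.42. Between the sexes, no member and no gene passed in limma on either diet. There were 2 members on each diet at an unadjusted p under 0.05, where all genes gave 740 on the HFD and 673 on the LFD. Without the muscle-containing libraries the LFD count was 1, where all genes gave 626 of 15677. Fasn differed there by -0.11 ± 0.70 on the HFD and -0.31 ± 0.70 on the LFD. The diet comparisons with the mixture and with vehicle, and the mixture comparisons on both diets, use the same 4 groups of a sex, so their differences repeat each other.

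Apart from the group means, livers of one group differed widely in the lipogenic enzymes. The SD of Fasn within a group, on the log2 scale, lay between 0.20 in HFD vehicle males and 1.30 in HFD males given the mixture. After removal of group means, 25 of 30 members varied with Fasn over the 48 livers at an adjusted p under 0.05, all with a positive r, where 8.00% of all genes did so (permutation within groups, two-sided, 100000 permutations, adjusted over 15819 genes). The median r was 0.732 for members and 0.104 for all genes, and 18 members but 0.828% of all genes reached an r of 0.7.

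Pgd had a Pearson r of 0.943 and a Spearman rho of 0.934 with Fasn, Acly 0.936 and 0.940, Acaca 0.934 and 0.936, and Elovl6 0.929 and 0.939. For each of these 4 the permutation p was 1e-05 for both measures, the smallest the permutations can give. Without the 2 livers farthest from the median of Fasn, liver 6 of the mixture-treated HFD males and liver 2 of the mixture-treated LFD females, r was 0.926 for Pgd, 0.932 for Acly, 0.924 for Acaca and 0.918 for Elovl6. Srebf1 had an r of 0.636 and a rho of 0.641 (permutation p = 4e-05 and 1e-05), or 0.558 without those 2 livers. Scd1 had an r of 0.765 and a rho of 0.777 (permutation p = 1e-05 for both), or 0.722 without them.

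The 5 members outside the 25 were Aacs at an r of 0.387, Scd2 at 0.334, Mlxipl at 0.241, Elovl3 at 0.097 and Nr1h3 at -0.178 (permutation p = 0.0179, 0.0568, 0.169, 0.531 and 0.305). Their rho were 0.356, 0.156, 0.224, -0.036 and -0.106. Genes outside the module varied with Fasn too, among them Sqle at an r of 0.860 and Gpam, which starts triglyceride synthesis, at 0.858, so this variation was shared by genes beyond the 31.

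**Figure D5:**
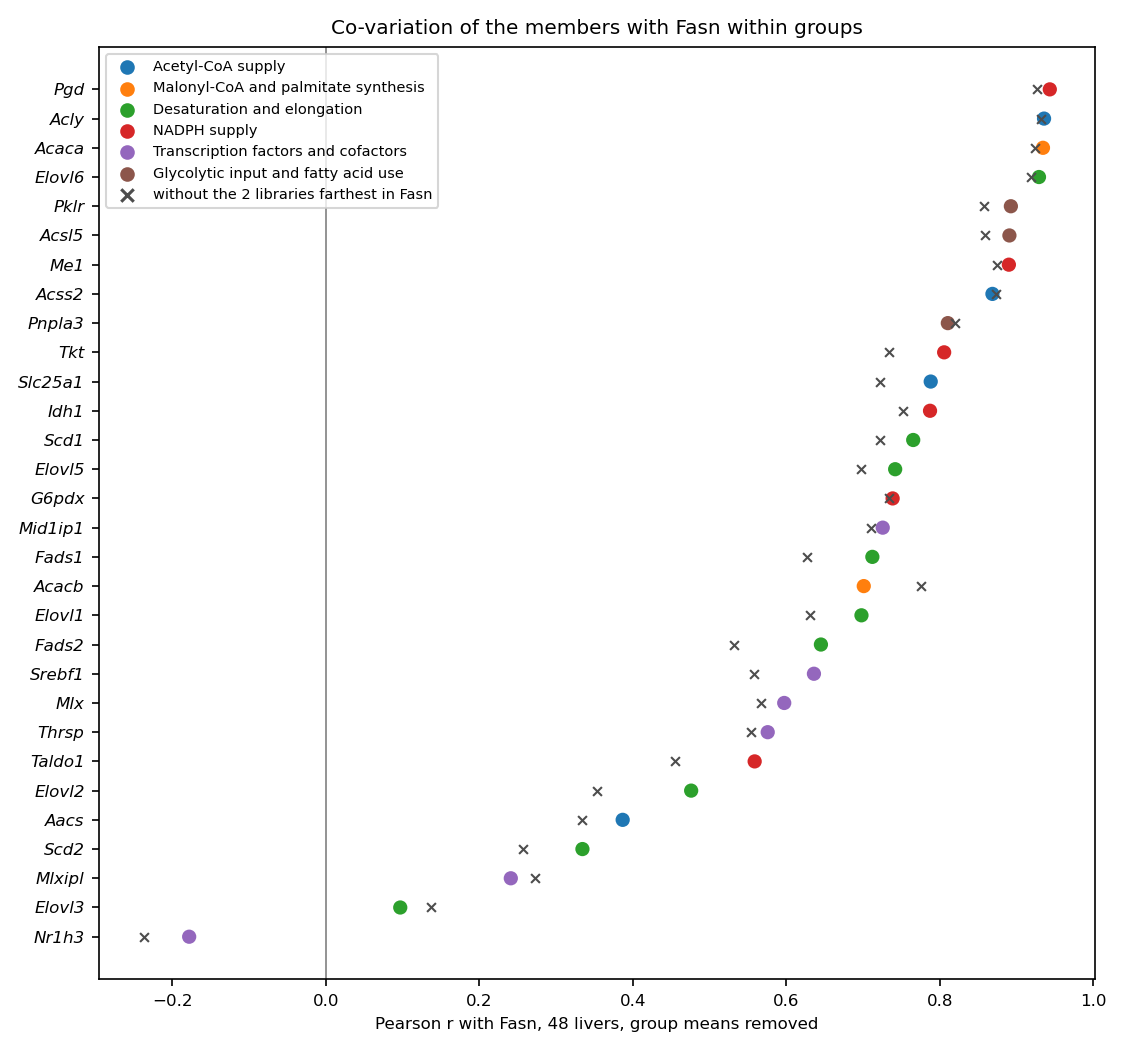
Pearson r of each of 30 members with Fasn over 48 livers after group means were removed, coloured by role, with crosses for r without the 2 livers farthest in Fasn. Pgd, Acly, Acaca and Elovl6 lie between 0.929 and 0.943, and Elovl3 (0.097) and Nr1h3 (-0.178) lie near 0.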

How the data were processed

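Poly(A) RNA of 48 livers, 6 in each of 8 groups, was measured. The deposited values are TPM per gene, which the authors computed library by library. Every column summed to 1000000, so TPM keep no depth, the depth of each library is unknown, and no counting interval was computed. Per the submitters' processing notes, the tools were STAR 2.5.2b, Trimmomatic 0.36, DESeq2 and FastQC, and the build GRCm38. Their roles, the read counter and the strand setting are not given there. Because the values are TPM, the count test written into the design was not used.

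Tests used limma 3.58.1 (R 4.3.3, empirical Bayes with an intensity trend) on log2(TPM + 1). On this scale changes of low genes come out too small. A gene was tested if 6 or more libraries reached 1 TPM. A single model of 8 group means and 40 residual degrees of freedom gave 21 comparisons, each adjusted by the Benjamini-Hochberg method over 15820 genes at a threshold of 0.05. Co-variation with Fasn used residuals from group means, permuted within groups, and was adjusted over all genes. Coordinates are 1-based, from GENCODE M21 on GRCm38, in which all 31 members were found. Exon bases are shared with a gene on the same strand by 5 members and with one on the other strand by 12. Promoters are from RefSeq.

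The members and lists were chosen with earlier results of these data known. Levels were to be named for Acly, Fasn, Scd1 and Srebf1 and for at most the 6 called members of smallest p in each comparison, or the 3 of smallest p where none was called. From each other list at most 2 genes of smallest p were named. Gpam was chosen after its value was seen. Library numbers run separately within each diet, so any difference between cohorts cannot be told apart from diet.

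Alternatives were TMM scaling of TPM, no filter on low values, 0.1 as the pseudocount, a model restricted to the compared groups, the replicate number as a block, and leaving out the 3 muscle-containing libraries. On simulated data for the mixture in LFD males (15820 genes), the test recovered 61.2% of 1.5-fold, 82.1% of 2-fold and 95.5% of 4-fold changes, with 10 false calls. Noise was drawn independently for each gene, and 67, 67 and 66 genes, picked from all genes tested, were changed at these folds. The data themselves gave 6 called genes there, and more changed genes make the adjusted threshold easier to pass. The shares therefore do not give the chance of finding a change in members of wide spread, such as Fasn.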

Additional observations from a re-analysis of the deposited data

Results flagged for a closer look

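In 18 of 248 combinations of member and group, the extreme liver lay farther from the other 5 than Dixon's 95% limit allows. Chance gives about 1 in 20. Values here are the gap to the nearest liver over the range of the group. In liver 6 of the mixture-treated HFD males, which held the most muscle transcripts, 8 members were low: Slc25a1 (0.703), Fads1 (0.669), Fads2 (0.730), Me1 (0.663), Tkt (0.683), Taldo1 (0.718), Idh1 (0.695) and Acsl5 (0.657). Fads2 had 536 TPM there and a median of 1424 TPM in the other 5. In liver 3 of the mixture-treated LFD females, which held adrenal, adipocyte and muscle transcripts, 3 were high: Scd2 (0.751), Taldo1 (0.721) and Pnpla3 (0.724). Pnpla3 had 57.9 TPM there and a median of 5.38 TPM in the others, and Scd2 38.2 and 9.13 TPM.

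The remaining 7 lay in 4 livers. In liver 2 of the mixture-treated HFD females Scd2 was high (0.752), and in liver 5 Srebf1 was low (0.697). In liver 1 of the LFD vehicle males Slc25a1 (0.711), Taldo1 (0.629) and Mlxipl (0.643) were high. In liver 6 of the LFD vehicle females Elovl5 was low (0.746) and Mlx high (0.631).

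The diet response differed between males and females in 23 tests of the difference itself, given as the male minus the female log2 change. With the mixture these were Scd1 (1.56), Elovl1 (0.51), Elovl3 (-2.61), Elovl5 (1.25), G6pdx (2.08), Taldo1 (0.42), Srebf1 (-0.76), Mlxipl (-0.47), Mlx (0.37) and Acsl5 (0.71). With vehicle they were Scd1 (1.71), Elovl1 (0.52), Elovl3 (-2.27), Elovl5 (1.13), Fads2 (0.76), Me1 (1.31), G6pdx (1.92), Tkt (0.68), Srebf1 (-1.04), Mlxipl (-0.55), Mlx (0.32), Mid1ip1 (-0.89) and Acsl5 (0.69).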

How the results depend on the processing

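Over 6 alternatives for 21 comparisons, the count of called members stayed within 1.5 times of the reported one except as follows. With TMM scaling, 6 members differed in diet response between the sexes with the mixture and 6 with vehicle, where the all-gene median differences were -0.025 and 0.015. Without the filter on low values these were also 6 and 6, and 5 members differed between the sexes in LFD vehicle livers, with 35205 genes tested. In fits of only the groups compared, 7 members passed for diet in males given the mixture and 12 for sex in HFD vehicle livers. Without the 3 muscle-containing libraries, 15 passed for sex in HFD livers given the mixture and 8 in LFD livers given it. In that order, all genes gave 2072 and 2097 calls of 15800 with TMM scaling, and 2121, 2191 and 3269 of 35205 without the filter. They gave 5104 and 1710 of 15820 in the restricted fits, and 2664 and 2874 of 15677 without the 3 libraries. The causes of these moves in the counts were not tested. Signs turned without these libraries for Acly and Fasn with the mixture in HFD males (0.15 and 0.39), Fasn with diet in males given the mixture (0.40), Acly with the mixture by sex on the HFD (0.14) and the LFD (0.0792), and Fasn with the mixture by sex on the HFD (0.33). They turned with TMM scaling for Acly with the mixture in HFD females (-0.0100) and Srebf1 with sex in HFD vehicle livers (-0.0148). All of these reversed values were uncalled. A pseudocount of 0.1 kept every count within 1.5 times. The count of members that vary with Fasn was 22 with TMM scaling, 25 with the other pseudocount and 21 without the muscle-containing libraries.

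Replicate numbers did not pair the livers: over 168 same-numbered pairs, deviations from group means correlated between -0.207 and 0.438, with a median of 0.013, and 25 pairs were over 0.1. With the replicate number as a block, 14 members passed for diet in vehicle males, 13 in males given the mixture, and every count stayed within 1.5 times. All genes gave 5051 and 6190 of 15820 with that block. Depth cannot be recovered from TPM, so whether it limits low members such as Pnpla3 is unknown.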
